A study of Mus musculus with 16 samples.

Results

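Kdr is the main signalling receptor for vascular endothelial growth factor (VEGF) on endothelial cells. Its mean was higher in Pdgfb ret/ret than in ret/wt brain in both regions, but did not pass a test adjusted over all genes. General endothelial markers were mostly higher in ret/ret as well. The partner receptor Flt1 and the ligands Vegfa and Vegfb showed no genotype difference beyond their spread. The genes described here are 10 of the 21804 genes in the count table, taken by their symbols: the ligands Vegfa, Vegfb and Vegfc, the receptors Kdr and Flt1, the coreceptors Nrp1 and Nrp2, and Esm1, Apln and Adm, which are known from sprouting vessels. All 10 were found in the table. Bulk RNA sequencing of polyA-selected RNA covered cortex and thalamus of 8 C57BL/6 mice aged 4 months, 4 Pdgfb ret/ret and 4 Pdgfb ret/wt, which gave 16 libraries in 4 groups of 4. The ret allele removes the retention motif that keeps PDGF-B, the growth factor that recruits pericytes, next to the vessel. The ret/wt controls also carried 1 ret allele, so no fully wild-type tissue was compared. In ret/ret animals the thalamus sample was calcified tissue, found by its autofluorescence under a stereomicroscope and cut out, and in ret/wt animals it was uncalcified tissue of the corresponding place. Cortex was uncalcified in both genotypes. In thalamus, genotype, calcification and the way of dissection cannot be told apart.

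VEGF-A is made by glia, neurons and other cells around the vessel, is induced when oxygen is short, and acts on endothelial cells through KDR (VEGFR2). FLT1 (VEGFR1) binds the same ligand tightly but signals weakly, and a soluble form made from the same gene traps ligand. The neuropilins bind VEGF and semaphorins and strengthen KDR signalling. In growing vessels the leading endothelial cell, the tip cell, is known to express KDR, apelin and ESM1 strongly, whereas stalk cells behind it express more FLT1. The counts were per gene, so soluble and membrane forms of Flt1 were not separated.

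The receptor genes Kdr and Flt1 lie on the same chromosome but had different patterns here, and Apln was the one gene of the 10 that passed the test in any comparison, so the sequences upstream of these 3 genes are shown. They are RefSeq sequences on GRCm38.p6, 245 bases each, ending 5 bases before the annotated start. They come from chr5:75978461-75978705 for Kdr, chr5:147726017-147726261 for Flt1 and chrX:48034859-48035103 for Apln, all on the minus strand and outside annotated GENCODE M21 exons. Capitals mark GC boxes, the letters GGGCGG or their reverse complement CCGCCC.
Kdr: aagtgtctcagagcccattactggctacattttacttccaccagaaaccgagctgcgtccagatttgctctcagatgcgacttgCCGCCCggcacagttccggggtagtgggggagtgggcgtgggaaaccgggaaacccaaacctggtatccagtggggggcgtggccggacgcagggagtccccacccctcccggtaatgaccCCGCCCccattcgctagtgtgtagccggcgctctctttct
Flt1: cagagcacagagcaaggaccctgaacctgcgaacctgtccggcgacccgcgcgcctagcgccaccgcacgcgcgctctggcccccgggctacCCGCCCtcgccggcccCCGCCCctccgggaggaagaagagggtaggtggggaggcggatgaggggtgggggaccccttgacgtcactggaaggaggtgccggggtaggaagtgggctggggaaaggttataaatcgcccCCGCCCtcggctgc
Apln: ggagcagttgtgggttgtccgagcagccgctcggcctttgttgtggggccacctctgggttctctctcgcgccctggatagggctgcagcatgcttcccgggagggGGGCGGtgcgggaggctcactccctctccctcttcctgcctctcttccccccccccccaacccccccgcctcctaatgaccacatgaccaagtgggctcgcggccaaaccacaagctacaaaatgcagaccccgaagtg
The GC box occurred 2 times upstream of Kdr, 3 times upstream of Flt1 and 1 time upstream of Apln, and 32.1% of the 32817 mouse promoter windows of this length held at least 1. A TATA box, TATAAA on either strand, occurred in the Flt1 window alone among these 3 and did not overlap a GC box. It was present in 12.2% of all windows. The letters ACGTG on either strand, a form of the core of the hypoxia response element, were in none of these 3 windows. They were in 16.3% of all windows. The form GCGTG was not searched for, so absence of the core is not shown. These matches describe the letters in the windows only.

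Library totals ran from 13415391 to 29135064 counts, so that 3 counts corresponded to 0.103 to 0.224 CPM, a gene's counts as a share of its library's scaled total. Summed cortex neuron markers were 780 to 2613 CPM in the cortex libraries and at most 446 in thalamus. Summed thalamus neuron markers overlapped between regions: they reached 149 to 739 CPM in cortex and 537 to 3138 CPM in thalamus, and the highest cortex library was ret/ret replicate 2. In cortex 7 of 7 tested thalamus neuron markers were higher in ret/ret, beside 51.9% of all genes tested. At an unadjusted p under 0.05, 3 of them were higher, beside 2.62% of all genes. Some libraries held markers of neighbouring tissue. Summed cerebellar markers were 4537 CPM in ret/ret cortex replicate 2 and 2012 in ret/wt cortex replicate 3, against 165 to 254 in the other 6 cortex libraries. Summed choroid plexus markers were 1727 CPM in ret/wt cortex replicate 4, against 204 to 431 in the other 7. The Y-linked gene Ddx3y was at 55.2 CPM or above in the 4 libraries of ret/wt animal 3 and ret/ret animal 2 and at most 0.219 elsewhere. These are the 2 animals with the high cerebellar sums in cortex. Their thalamus libraries had 2887 and 3138 CPM of summed thalamus neuron markers, against 537 to 1083 in the other thalamus libraries. Y-linked reads and tissue content therefore cannot be told apart here. Rgs5, a pericyte marker, was 13.8 to 22.6 CPM in the 8 ret/ret libraries and 43.6 to 68.6 in the 8 ret/wt libraries. With both regions of each animal summed it fell by 1.59 ± 0.16 (SE) on the log2 scale (edgeR adjusted p = 0.0140).

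Across the 10 genes, levels per kilobase of exon were led in every group by Vegfb, a VEGF family ligand that binds FLT1. Its means were 25.6 ± 4.80 CPM per kb in ret/wt cortex, 25.6 ± 3.09 in ret/ret cortex, 34.3 ± 4.83 in ret/wt thalamus and 37.3 ± 7.08 in ret/ret thalamus (SD, n = 4). In 3 of the 4 groups Apln came next, ahead of Vegfa. In ret/wt cortex Vegfa, at 11.3 ± 2.11 CPM per kb, and Apln, at 9.66 ± 3.93, changed places but did not differ beyond their spread. Per kilobase, mean Flt1 was above mean Kdr in all 4 groups, and the gap differed. In ret/wt cortex Flt1 reached 4.01 ± 0.83 CPM per kb and Kdr 1.23 ± 0.38. In ret/ret cortex Flt1 was at 3.66 ± 0.997 and Kdr at 2.96 ± 1.18. The ratio of Kdr to Flt1 within single ret/ret cortex libraries was 0.617 to 0.901, so Flt1 was above Kdr in each. Esm1 was last in every group, at 0.123 to 0.201 CPM per kb, and Nrp1, Nrp2, Adm and Vegfc filled the middle without clear steps between neighbours.

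**Figure D1:**
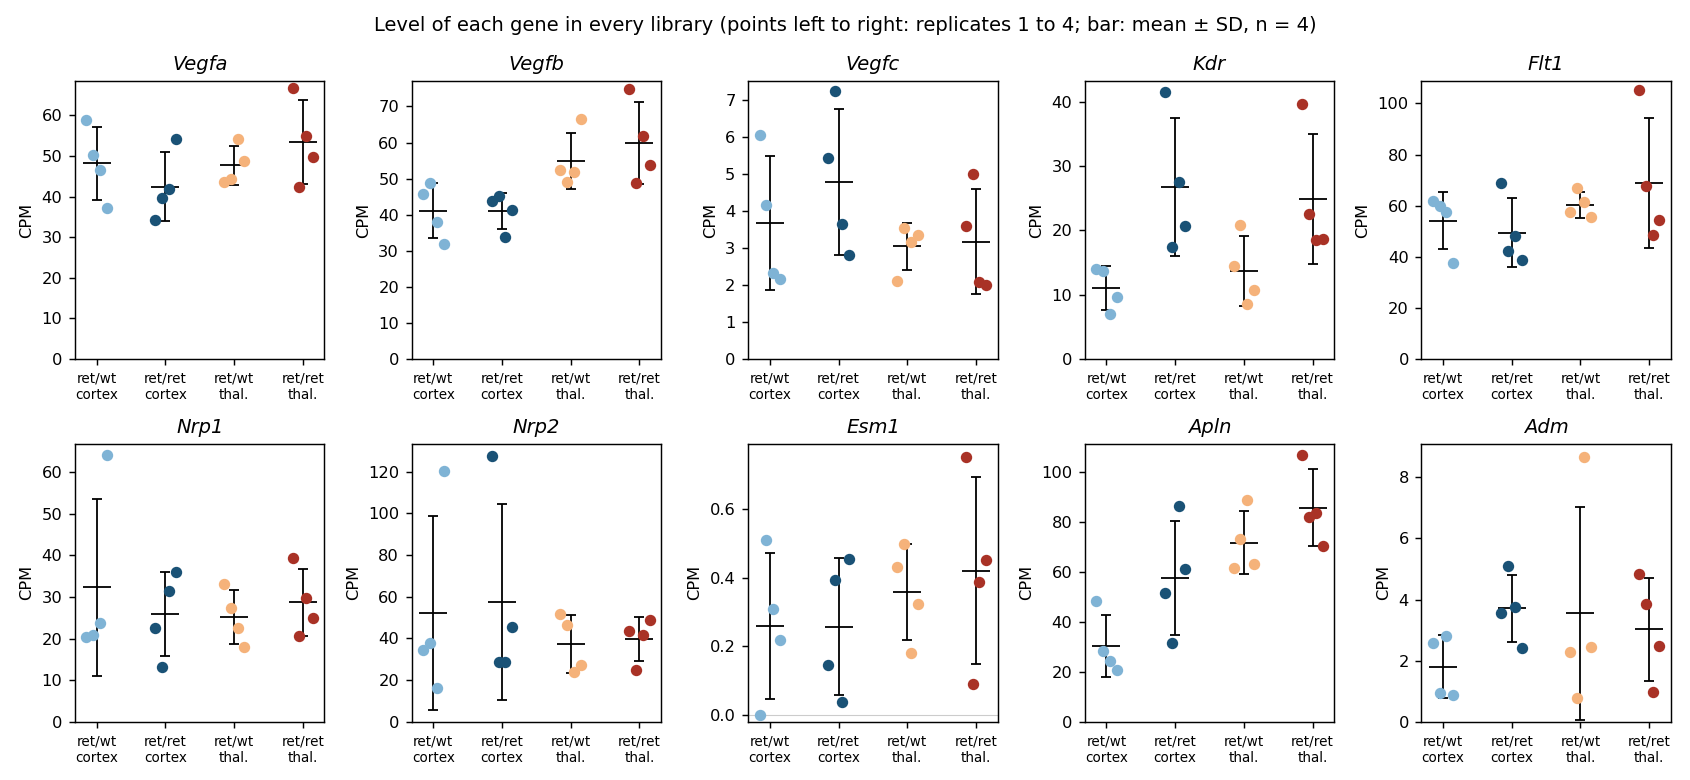
Level in CPM of each of the 10 genes in every library, by group; points are replicates 1 to 4 from left to right and bars are mean ± SD (n = 4). Kdr in ret/ret cortex (17.4 to 41.5 CPM) lies above ret/wt cortex (6.95 to 14.1 CPM), and single high libraries stand out for Nrp1 (64.2 CPM in ret/wt cortex) and Nrp2 (127 CPM in ret/ret cortex).

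In each region 9 of the 10 genes passed the filter on low counts, all but Esm1, and none of the 9 passed an adjusted p of 0.05 between genotypes in either region. Genes were tested by quasi-likelihood in edgeR, with p-values adjusted (Benjamini-Hochberg) over every gene of a comparison. It called 0.021% of the 14288 genes in cortex and 0% of the 14767 genes in thalamus, where 581 genes had an unadjusted p under 0.05 and the smallest adjusted p of any gene was 0.216. Except for Kdr in cortex, each of the 9 had an adjusted p of 0.999 in cortex and 0.9998 in thalamus. Before adjustment, 3 of 9 in cortex (Kdr, Apln and Adm) and 1 of 9 in thalamus (Kdr) were higher in ret/ret at p under 0.05, and none was lower. Of all genes, 2.62% were higher and 1.14% lower in this way in cortex, and 3.05% and 0.88% in thalamus. With DESeq2, which called 38 genes in cortex and 37 in thalamus, none of the 9 passed in either region. The median log2 fold change of the 9 was 0.15 in cortex and 0.19 in thalamus, beside 0.01 and -0.02 over all genes tested.

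**Figure D2:**
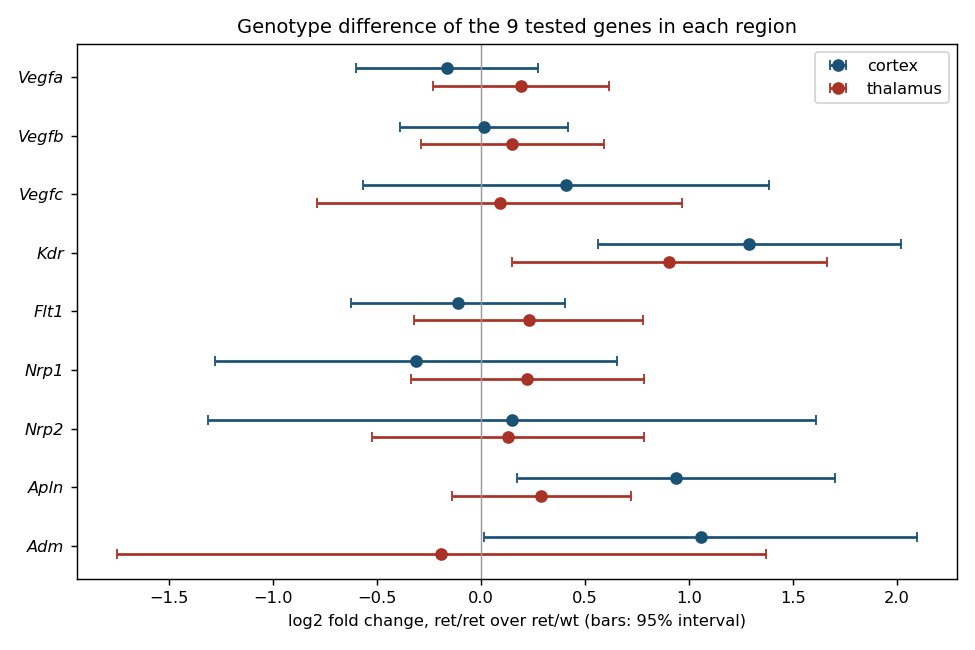
Log2 fold change of ret/ret over ret/wt for the 9 genes that passed the count filter, in cortex and thalamus; bars are 95% intervals from the edgeR fit. The intervals of Kdr lie above 0 in both regions (0.56 to 2.02 in cortex, 0.15 to 1.66 in thalamus), those of Apln and Adm in cortex only, and those of the other 6 genes span 0 in both.

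Kdr lies on chromosome 5 (75932827 to 75978458, minus strand, GRCm38). In ret/wt cortex it was at 14.1, 13.7, 6.95 and 9.61 CPM in replicates 1 to 4. In ret/ret cortex it was at 41.5, 17.4, 27.5 and 20.6 CPM. Every ret/ret cortex library was above every ret/wt cortex library, a separation that 1.58% of all genes in that comparison had in the same direction. The difference was 1.29 ± 0.33 (SE) on the log2 scale, with a 95% interval of 0.56 to 2.02 and an adjusted p of 0.728 in edgeR. By its unadjusted p Kdr ranked 49 of the 14288 genes. Its adjusted p over the alternative settings ran from 0.0687, in DESeq2, to 0.9999. The difference without 1 library stayed between 0.996 and 1.45, the lowest without ret/ret replicate 1.

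In thalamus the Kdr difference was in the same direction, and the groups overlapped. Kdr was at 14.5, 20.9, 8.55 and 10.7 CPM in ret/wt thalamus. In ret/ret thalamus it was at 39.7, 22.5, 18.5 and 18.6 CPM. Replicate 2 of the controls lay above 2 of the 4 ret/ret libraries. The difference was 0.91 ± 0.34 (SE) on the log2 scale, with a 95% interval of 0.15 to 1.66. It was 0.57 without ret/ret replicate 1, the library with the highest summed endothelial markers. Microglial markers also differed in this comparison, with all 10 higher in ret/ret (summed level 536 to 795 CPM against 340 to 424) and none past the adjusted test. Of all genes, 47.1% were higher there. With the 2 regions of each animal added together, all 4 ret/ret animals were above all 4 ret/wt animals, as for 2.21% of all genes. Kdr then differed by 1.07 ± 0.32 (SE, 95% interval 0.36 to 1.77, edgeR adjusted p = 0.711), in a comparison that called 0.0129% of 15505 genes. The genotype difference in thalamus minus that in cortex was -0.41 ± 0.49 (SE, 95% interval -1.46 to 0.64), so a different size in the 2 regions was not shown. That interaction called 0% of 15286 genes, with 245 at an unadjusted p under 0.05, and DESeq2 called 4.

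Flt1, on chromosome 5 as well (147561604 to 147726011, minus strand), did not follow Kdr. In ret/wt cortex it was at 61.7, 60.0, 57.4 and 37.5 CPM. In ret/ret cortex it was at 68.8, 42.1, 48.0 and 38.9 CPM. The groups overlapped and the difference was -0.11 ± 0.23 (SE) on the log2 scale, with a 95% interval of -0.63 to 0.40. In thalamus the controls were at 55.4 to 66.9 CPM and the ret/ret libraries at 105, 67.5, 48.5 and 54.2 CPM. One library, ret/ret replicate 1, was far above the rest there, and the difference was 0.23 ± 0.25 (SE, 95% interval -0.32 to 0.78). It was -0.06 without that library.

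The 2 receptors can be set against each other within a library, which leaves the library's scaling out. Per kilobase of exon, the ratio of Kdr to Flt1 was 0.341, 0.342, 0.181 and 0.384 in ret/wt cortex. It was 0.901, 0.617, 0.858 and 0.794 in ret/ret cortex. In thalamus it was 0.378, 0.466, 0.208 and 0.288 in ret/wt and 0.564, 0.499, 0.570 and 0.513 in ret/ret. In both regions the lowest ret/ret ratio was above the highest ret/wt ratio. The ratio was chosen after the values of both genes had been seen and is given with no test. Within each genotype it was lowest, in both regions, in the animal with Y-linked reads, ret/wt animal 3 and ret/ret animal 2. These animals also had the highest cerebellar and thalamus neuron marker sums of their groups, so the 2 features cannot be told apart.

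**Figure D3:**
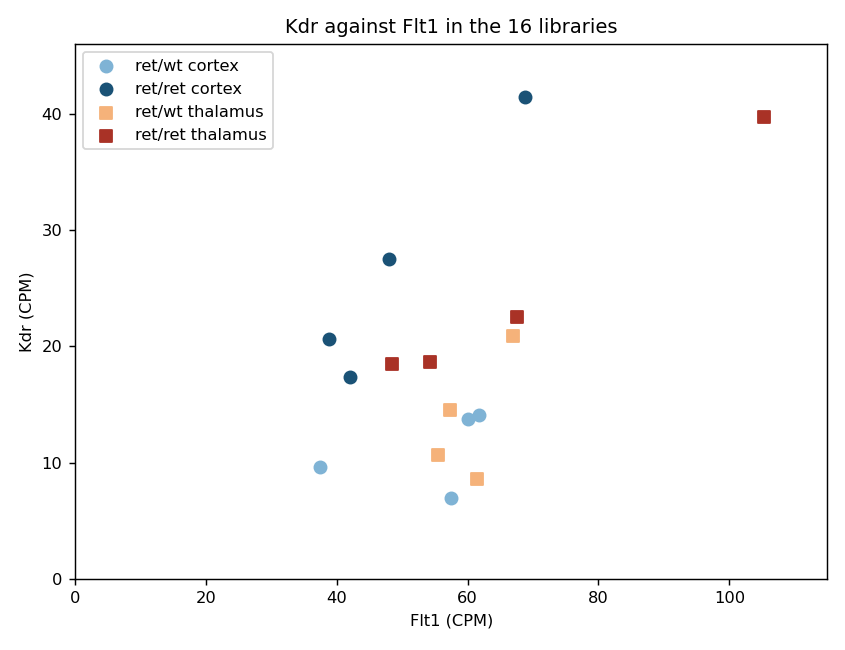
Kdr against Flt1 in CPM, 1 point per library (circles cortex, squares thalamus; dark ret/ret, light ret/wt). At like Flt1 levels the ret/ret libraries have more Kdr than the ret/wt libraries, and ret/ret replicate 1 is highest in Kdr in each region (41.5 and 39.7 CPM).

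General endothelial genes were also higher in ret/ret libraries. Of 16 tested endothelial markers, 15 had a higher mean in ret/ret cortex and 16 in ret/ret thalamus, beside 51.9% and 47.1% of all genes tested, with median log2 fold changes of 0.64 and 0.52, and none passed the adjusted test in either region. At an unadjusted p under 0.05, 6 were higher and 1 lower in cortex, beside 2.62% and 1.14% of all genes. In thalamus 2 were higher at that p, beside 3.05% of all genes. The largest differences were those of Clec14a, an endothelial surface lectin-like protein, at 2.71 ± 0.39 (SE, edgeR adjusted p = 0.0879) in cortex and 1.67 ± 0.49 (adjusted p = 0.9998) in thalamus. Next came Eng, a coreceptor of the TGF-beta family, at 1.74 ± 0.35 (edgeR adjusted p = 0.476) in cortex and 1.54 ± 0.31 (adjusted p = 0.629) in thalamus. The markers' summed level was 184 to 276 CPM in ret/wt cortex and 292 to 577 in ret/ret cortex, which did not overlap. In thalamus it was 247 to 403 CPM in ret/wt and 305 to 628 in ret/ret. In bulk tissue, more endothelial cells and more RNA per endothelial cell cannot be told apart.

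Set against that sum, it was Flt1 rather than Kdr that stood apart in cortex. Flt1 amounted to 23.2, 21.7, 31.0 and 20.4% of the summed endothelial level in ret/wt cortex and to 11.9, 11.5, 13.1 and 13.3% in ret/ret cortex, with no overlap. Kdr amounted to 5.29, 4.98, 3.75 and 5.23% in ret/wt cortex and to 7.18, 4.73, 7.495 and 7.08% in ret/ret cortex, where replicate 2 fell inside the control range. In thalamus both overlapped: Flt1 was 13.8 to 24.8% in ret/wt and 13.8 to 17.0% in ret/ret, and Kdr was 2.65 to 7.39% in ret/wt and 4.73 to 6.31% in ret/ret. These shares depend on which markers were summed and were given no test. The part of endothelial content in the Kdr difference was not tested.

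**Figure D4:**
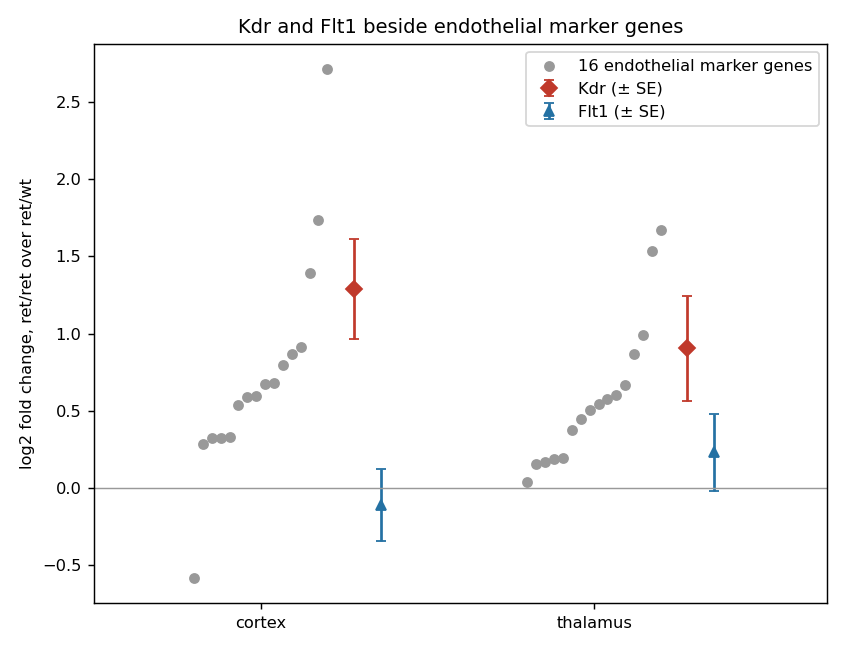
Log2 fold change of ret/ret over ret/wt for 16 endothelial marker genes (grey, in order of size), Kdr (red) and Flt1 (blue), with SE bars for the latter pair. Kdr (1.29 in cortex, 0.91 in thalamus) sits among the upper markers, and Flt1 (-0.11 and 0.23) lies below 15 of 16 in cortex and within the lower markers in thalamus.

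The ligands showed no genotype difference beyond their spread. Vegfa, on chromosome 17 (46016993 to 46032369), was at 58.9, 50.3, 46.6 and 37.1 CPM in ret/wt cortex. In ret/ret cortex it was at 34.3, 39.6, 41.8 and 54.3 CPM. In thalamus it was at 43.7, 44.3, 54.1 and 48.7 CPM in ret/wt and at 66.8, 42.3, 54.9 and 49.8 CPM in ret/ret. The groups overlapped in both regions. The difference was -0.17 ± 0.20 (SE, 95% interval -0.60 to 0.27) in cortex and 0.19 ± 0.19 (-0.23 to 0.62) in thalamus. Over both regions together the interval was -0.23 to 0.36 on the log2 scale. Vegfb, on chromosome 19 (6982473 to 6987651), differed by 0.02 ± 0.18 in cortex and 0.15 ± 0.20 in thalamus (SE). Vegfc, the lymphatic growth factor, on chromosome 8 (54077606 to 54187096), was low at 2.01 to 7.24 CPM over the 16 libraries. Its difference was 0.41 ± 0.44 in cortex and 0.09 ± 0.39 in thalamus (SE), with intervals that reached from -0.57 to 1.38 and from -0.79 to 0.97.

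The coreceptors showed single high cortex libraries and no genotype difference beyond their spread. Nrp1, on chromosome 8 (128358604 to 128503363), was at 20.4, 20.8, 23.9 and 64.2 CPM in ret/wt cortex and at 22.7, 13.1, 31.5 and 36.1 CPM in ret/ret cortex. Nrp2, on chromosome 1 (62703285 to 62818695), was at 34.5, 37.8, 16.3 and 121 CPM in ret/wt cortex and at 127, 28.5, 28.8 and 45.3 CPM in ret/ret cortex. Replicate 4 of ret/wt cortex, high in both, was the library with 1727 CPM of summed choroid plexus markers, whereas ret/ret cortex replicate 1, high in Nrp2, had 204 CPM of them and Nrp1 at 22.7 CPM. The part of tissue content in these values was not tested. In cortex Nrp1 differed by -0.31 ± 0.43 and Nrp2 by 0.15 ± 0.65 (SE). Without ret/wt replicate 4 the Nrp1 difference turned to 0.27 and that of Nrp2 was 0.98, whereas without ret/ret replicate 1 that of Nrp2 turned to -0.61. In thalamus the 8 libraries spanned 18.1 to 39.3 CPM for Nrp1 and 23.6 to 51.6 CPM for Nrp2, and the genotype differences were 0.22 ± 0.25 and 0.13 ± 0.29 (SE).

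Apln encodes apelin, a peptide secreted by tip cells, and lies on chromosome X (48025146 to 48034853, minus strand). In ret/wt cortex it was at 48.4, 28.4, 24.4 and 20.5 CPM and in ret/wt thalamus at 61.7, 73.2, 88.9 and 63.3 CPM. Every thalamus library was above every cortex library, as for 8.97% of all genes in that comparison. All 4 animals were higher in thalamus. Apln rose by 1.25 ± 0.28 (SE) on the log2 scale from cortex to thalamus in ret/wt, with an edgeR adjusted p of 0.0144. It was the only 1 of 9 genes to pass there, in a comparison that called 12.6% of 14442 genes. There 7 of 10 oligodendrocyte lineage markers rose and 6 of 8 cortex neuron markers fell, and the part of cell makeup in the Apln step was not tested. With the animal as a block, the adjusted p was 0.0314, and it was 0.0806 without the 2 animals with Y-linked reads, within a range of 4.67e-04 to 0.0806 over the alternatives.

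In ret/ret animals the regional step in Apln was smaller but the 2 steps were not shown to differ. Apln was at 51.6, 31.5, 86.2 and 61.0 CPM in ret/ret cortex and at 107, 81.9, 83.8 and 70.4 CPM in ret/ret thalamus. Here 3 of 4 animals were higher in thalamus, and the difference was 0.58 ± 0.28 (SE, edgeR adjusted p = 0.221), in a comparison that called 9.5% of 14715 genes. The interaction was -0.67 ± 0.41 (SE, 95% interval -1.53 to 0.20). Between genotypes, ret/ret cortex exceeded ret/wt cortex by 0.94 ± 0.34 (SE, 95% interval 0.17 to 1.703), with ret/wt replicate 1 above ret/ret replicate 2. In thalamus the difference was 0.29 ± 0.19 (SE, 95% interval -0.14 to 0.72). With both regions summed per animal the ret/ret animals were all above the ret/wt animals, as for 2.21% of all genes. The difference was 0.55 ± 0.17 (SE, edgeR adjusted p = 0.752).

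**Figure D5:**
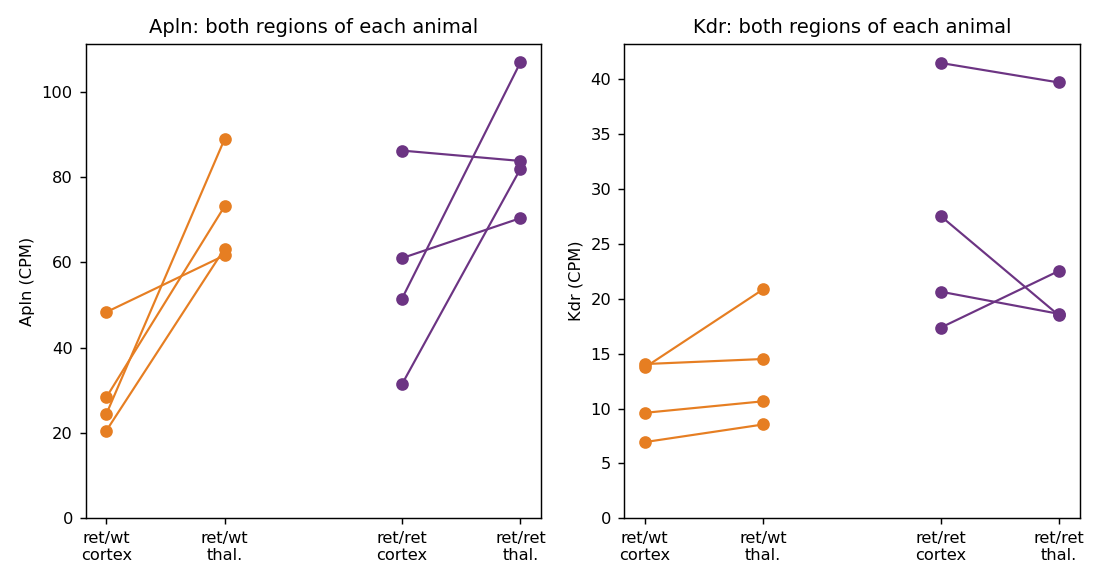
Apln (left) and Kdr (right) in CPM in the cortex and thalamus of each animal, joined by a line. Apln is higher in thalamus in 4 of 4 ret/wt and 3 of 4 ret/ret animals; Kdr is higher in thalamus in 4 of 4 ret/wt animals and in 1 of 4 ret/ret animals.

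Kdr differed little between regions: 0.31 ± 0.33 in ret/wt and -0.10 ± 0.34 in ret/ret (SE, edgeR adjusted p = 0.594 and 0.881). Vegfb was the other gene whose regions did not overlap. It was at 31.8 to 48.9 CPM in ret/wt cortex and 49.2 to 66.4 in ret/wt thalamus. In ret/ret it was at 34.0 to 45.1 CPM in cortex and 48.8 to 74.9 in thalamus. Such a separation upward in thalamus was present in 8.97% of all genes in ret/wt and 8.18% in ret/ret. The differences were 0.43 ± 0.20 in ret/wt and 0.55 ± 0.18 in ret/ret (SE, edgeR adjusted p = 0.198 and 0.0833), with 4 of 4 animals higher in thalamus in each genotype. In ret/ret the adjusted p was 0.0312 in DESeq2, 0.0419 without the 2 animals with Y-linked reads and 0.0494 without ret/ret thalamus replicate 2, and at most 0.193 over the alternatives. Between regions none of Vegfa, Vegfc, Flt1, Nrp1, Nrp2 and Adm passed in either genotype.

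Adm, adrenomedullin, is a vasodilator peptide of endothelial and other cells and a target of hypoxia-inducible factors. It lies on chromosome 7 (110627661 to 110629820). It was at 2.59, 0.950, 2.81 and 0.869 CPM in ret/wt cortex and at 3.56, 5.10, 3.76 and 2.41 CPM in ret/ret cortex. Only ret/ret replicate 4 fell within the control range there. The cortex difference was 1.06 ± 0.47 (SE, 95% interval 0.01 to 2.10). It was 0.86 without ret/ret replicate 2, the library with the highest summed cerebellar markers. The other cortex library with high cerebellar markers, ret/wt replicate 3, had the highest Adm of its group. Leaving out 1 library at a time gave 0.83 to 1.35. In thalamus Adm was at 2.29, 0.776, 8.67 and 2.46 CPM in ret/wt and at 4.83, 3.84, 0.970 and 2.47 CPM in ret/ret. One ret/wt library, replicate 3, was above all others, and the difference was -0.19 ± 0.70 (SE), which turned to 0.75 without that library. The interaction was -1.26 ± 0.90 (SE, 95% interval -3.17 to 0.65).

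Esm1, endocan, a proteoglycan of tip cells, lies on chromosome 13 (113209659 to 113218098) and had 0 to 17 counts per library. It passed the count filter only when both regions were summed per animal, where the difference was 0.12 ± 0.49 (SE, 95% interval -0.98 to 1.21). Its mean was 0.258 CPM in ret/ret cortex and 0.259 in ret/wt cortex (two-sided exact permutation p = 1 over 70 regroupings). In thalamus it was 0.421 and 0.358 CPM (two-sided exact permutation p = 0.743). A difference of moderate size would not have been detectable at this depth.

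Genes that act with the VEGF receptors were described from a list of 34 without the 10. In cortex 33 were tested and 13 were higher in ret/ret, beside 51.9% of all genes, with a median log2 fold change of -0.09. In thalamus 32 were tested and 20 were higher, beside 47.1% of all genes, with a median of 0.15. None passed the adjusted test between genotypes. Ptprb, the endothelial phosphatase VE-PTP that acts on TIE2 and KDR, had the smallest p in both regions. It was at 50.4, 49.2, 47.9 and 33.6 CPM in ret/wt cortex and at 166, 83.4, 112 and 71.1 CPM in ret/ret cortex. Ptprb did not overlap between these groups, as for 1.58% of all genes upward in cortex. It differed by 1.27 ± 0.27 (SE, edgeR adjusted p = 0.4997) in cortex and 0.91 ± 0.28 (SE, edgeR adjusted p = 0.9998) in thalamus. Vegfd, a ligand of FLT4, was the only one lower at an unadjusted p under 0.05, in cortex. Its log2 fold change there was -1.32 ± 0.52 (SE, edgeR adjusted p = 0.999). It was at 1.19 to 4.51 CPM in ret/wt cortex and 0.657 to 1.89 in ret/ret cortex.

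Between regions this list moved more. In ret/wt 2 of 33 rose and 10 fell from cortex to thalamus at an edgeR adjusted p under 0.05, beside 5.44% and 7.12% of all genes. In ret/ret 1 rose and 5 fell, beside 4.1% and 5.4% of all genes. The genes with the smallest p included Egr3, an immediate early transcription factor, which fell by 4.94 ± 0.47 in ret/wt and 3.80 ± 0.58 in ret/ret (SE, edgeR adjusted p = 2.51e-04 and 0.00612). Plxnd1, a semaphorin receptor, fell by 2.62 ± 0.36 and 2.45 ± 0.24 (SE, edgeR adjusted p = 0.00139 and 0.00142). Prkcb, a protein kinase C, fell by 1.64 ± 0.21 in ret/wt and 1.59 ± 0.28 in ret/ret (SE, edgeR adjusted p = 8.41e-04 and 0.00987). These 3 genes are known to be expressed in neurons as well as in vessels. The 2 regional comparisons share no library, but each shares its animals across regions.

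None of the other sprouting and tip cell genes passed the adjusted test between genotypes. In cortex 16 of 23 tested were higher with a median of 0.31, and 5 were higher at an unadjusted p under 0.05 against 0 lower, beside 51.9% of all genes higher and 2.62% higher at that p. In thalamus 17 of 22 were higher with a median of 0.16, and 2 were higher at an unadjusted p under 0.05, beside 47.1% and 3.05% of all genes. Cd93, an endothelial adhesion receptor, was at 5.38 to 9.23 CPM in ret/wt cortex and 15.04 to 25.3 in ret/ret cortex. It differed by 1.38 ± 0.25 there and by 0.75 ± 0.26 in thalamus (SE, edgeR adjusted p = 0.354 and 0.9998). Its groups did not overlap in either region, as for 1.58% of all genes upward in cortex and 1.7% in thalamus. Angpt2, a TIE2 ligand made by activated endothelium, was at 1.14 to 2.78 CPM in ret/wt cortex and 5.01 to 17.6 in ret/ret cortex, a difference of 2.42 ± 0.48 (SE, edgeR adjusted p = 0.476). In thalamus it differed by 0.21 ± 0.79 (SE), with 1 ret/wt library at 20.4 CPM and the other 3 at 1.60 to 2.66. That library, replicate 3, was also the one with the highest Adm. Ccn2, a matrix-associated YAP target, differed by 1.24 ± 0.31 in cortex and 1.33 ± 0.47 in thalamus (SE, edgeR adjusted p = 0.728 and 0.9998). Robo4, an endothelial guidance receptor, differed by 1.26 ± 0.35 in cortex (SE, edgeR adjusted p = 0.898).

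Among partners of apelin and adrenomedullin, Calcrl, the adrenomedullin receptor, was at 4.02 to 6.30 CPM in ret/wt cortex and 5.37 to 10.3 in ret/ret cortex, a difference of 0.86 ± 0.29 (SE, edgeR adjusted p = 0.999). Of this list, 4 of 6 tested genes were higher in ret/ret cortex and 5 of 8 in ret/ret thalamus, with none past the adjusted test. Of all genes, 51.9% and 47.1% were higher. The apelin receptor gene Aplnr, named after its values were seen, failed the filter in cortex. It was at 0.0543 to 0.176 CPM there in ret/wt and 0.521 to 1.60 in ret/ret. Of the genes tested in cortex, 1.58% were higher in ret/ret without overlap. The ret/wt cortex values of Aplnr lay around the level of 3 counts (0.103 to 0.224 CPM), and its cortex difference was not tested. In thalamus its ranges overlapped, at 0.179 to 1.25 CPM in ret/wt and 0.313 to 1.73 in ret/ret.

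Hypoxia-inducible factors and their targets, which include the known inducers of Vegfa and Adm, went in both directions. In cortex 16 of 27 were higher with a median of 0.05, beside 51.9% of all genes. In thalamus 17 of 27 were higher with a median of 0.09, beside 47.1% of all genes. Without overlap between groups, 3 were higher and 0 lower in thalamus, and 0 higher and 1 lower in cortex. Of all genes, 1.7% in thalamus and 1.58% in cortex were higher in this way. The share of all genes lower in this way is not given here, so the 1 lower gene in cortex has no background beside it. None passed the adjusted test. Epas1, the gene of HIF-2 alpha and abundant in endothelium, was at 152 to 195 CPM in ret/wt thalamus and 198 to 439 in ret/ret thalamus. It differed by 0.74 ± 0.25 in thalamus and 0.48 ± 0.18 in cortex (SE, edgeR adjusted p = 0.9998 and 0.999). Slc16a3, the lactate exporter MCT4, was at 0.840 to 1.33 CPM in ret/wt thalamus and 2.06 to 8.65 in ret/ret thalamus, a difference of 2.30 ± 0.53 (SE, edgeR adjusted p = 0.729). Ndrg1, a stress-response gene, was lower in ret/ret cortex, with a log2 fold change of -1.23 ± 0.38 (SE, edgeR adjusted p = 0.999), at 0.581 to 1.06 CPM against 1.17 to 2.51. The glucose transporter gene Slc2a3 was lower there, at -0.46 ± 0.19 (SE, edgeR adjusted p = 0.999).

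The genes whose log2 CPM ran most like Kdr over the 16 libraries, among 15286 genes, were Iigp1 (Pearson r = 0.941), an interferon-inducible GTPase, Clec14a (r = 0.915) and Alox12 (r = 0.895), a lipoxygenase. For Flt1 they were Casc1 (r = 0.814), Plac9b (r = 0.787) and Pter (r = 0.785). For Vegfa they were Npepl1 (r = 0.745), Bean1 (r = 0.744) and Zdhhc1 (r = 0.708), and for Adm they were Serpinb6b (r = 0.787), Fzd6 (r = 0.778) and Adipor1 (r = 0.767). The 16 libraries come from 8 animals and differ in region and genotype, and these correlations describe the libraries only. Among the 10 genes themselves the highest was that of Vegfa with Vegfb (r = 0.605), followed by Vegfb with Flt1 (r = 0.603), whereas Kdr ran most like Apln (r = 0.524).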

How the data were processed

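Per the labels' protocols, RNA was polyA-enriched and stranded libraries were made. The deposited values are expected counts per Ensembl gene, made by the authors with kallisto 0.44.0 and the build GRCm38.p6, per the submitters' processing notes, and whether they were rescaled by transcript length is not given in the sources used here. They were rounded to whole numbers. GENCODE M21 (GRCm38) gave symbols, coordinates and exon lengths for the 21581 genes (99.0%) whose Ensembl identifiers it holds. Upstream sequences are RefSeq's.

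In R 4.3.3 with edgeR 4.0.16, genes were kept by filterByExpr (minimum count 10, minimum total 15), scaled by TMM, and tested with the quasi-likelihood test, each comparison on its own 8 libraries, the interaction on 16, and the genotype over both regions on counts summed per animal. The p-values of a comparison were adjusted together over its tested genes (Benjamini-Hochberg, threshold 0.05). Standard errors came from the F statistic and 95% intervals from the fit's total degrees of freedom. CPM in single libraries was scaled by TMM over all 16. A fold change is ret/ret over ret/wt or thalamus over cortex. The scripts were tested on simulated data. Figures were drawn with matplotlib 3.10.9. Replicates are separate animals. The floor of 3 counts covers counting error only.

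The labels' animal identifiers pair the cortex and thalamus libraries of one animal. The main fits between regions and of the interaction had no animal term. Their p-values, standard errors and intervals therefore treat paired libraries as independent. The residuals of paired libraries correlated across genes at 0.0608 on average in ret/wt and 0.0884 in ret/ret, against -0.0205 and -0.0291 for libraries of different animals. Equal numbers across genotypes are different animals.

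The genes and lists were chosen with earlier results of these data known. The 10 genes are all given between genotypes in each region. In the other comparisons values are not given for every one of them. From each list, up to 4 genes with the smallest unadjusted p were eligible to be named per comparison, those with an adjusted p under 0.05 first; 1 eligible gene is not reported here. The 3 other genes most correlated with Vegfa, Kdr, Flt1 and Adm were named. Of 221 genes written in the lists, 4 (Adm2, Erg, Myh11 and Olig2) were not analysed here. Alternatives were other size factors, DESeq2 1.42.0, limma-voom (limma 3.58.1), no filter, a replicate block, leaving out each library, and leaving out the 2 animals with Y-linked reads. Those 2 animals also had the highest cerebellar and thalamus neuron marker sums of their groups.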

Additional observations from a re-analysis of the deposited data

Results flagged for a closer look

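Nrp1 in ret/wt cortex was at 64.2 CPM in replicate 4 and at 20.4 to 23.9 CPM in the other 3 libraries, a gap of 0.921 of the group's whole range. Nrp2 in ret/ret cortex was at 127 CPM in replicate 1 and at 28.5 to 45.3 CPM in the other 3, a gap of 0.831 of the range. Both exceed what a group of 4 shows by chance in about 1 of 20 groups (Dixon's criterion), and 40 groups of 4 were examined, so a few such gaps would be found by chance alone.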

How the results depend on the processing

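Of 885 refits of the genes described here, 816 kept the direction and the side of the threshold, 65 changed sign and 4 crossed the threshold. The genotype difference of Kdr was positive in each refit of cortex (0.996 to 1.45), thalamus (0.57 to 1.17) and both regions summed (0.78 to 1.29), and was never past the threshold. Among the results that changed sign, the one farthest from 0 in the original fit was Nrp2 between regions in ret/ret, at -0.53.

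For counts of genes called, DESeq2 gave 37 in thalamus and 38 in cortex between genotypes, 2591 between regions in ret/ret, 4 in the interaction and 80 over both regions, where limma-voom gave 12. Without the 2 animals with Y-linked reads the counts were 1 in cortex, 2564 between regions in ret/ret and 0 over both regions. With 1 library left out they were 0 to 2 in cortex, 627 (without ret/ret cortex replicate 3) to 2007 (without ret/ret cortex replicate 2) between regions in ret/ret, 1178 to 1797 in ret/wt, and 1 to 2 over both regions. The cause was not tested.

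With a replicate block, which for genotypes pairs only equal numbers, 0 genes were called in cortex, the Adm difference in thalamus was 0.22, and, with the animal as the block, the Vegfa difference between regions in ret/wt was 0.011. The block changed no call of the 10 genes.

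Further changes of sign with limma-voom were those of Adm in thalamus (0.13), Vegfa between regions in ret/wt (0.015), and over both regions Vegfa (-0.012), Flt1 (-0.0048) and Nrp2 (0.15). With upper-quartile scaling, which moved the median of all genes to 0.10 between regions in ret/ret and 0.13 in ret/wt, they were Kdr between regions in ret/ret (0.029), Vegfa between regions in ret/wt (0.10) and Nrp2 over both regions (0.033). Nrp2 over both regions was also 0.0128 with DESeq2 size factors, 0.013 in DESeq2 and 0.039 without a filter. Without the 2 animals with Y-linked reads they were Vegfc (-0.19) and Adm (0.62) in thalamus, Vegfb (-0.072) and Vegfc (-0.038) in cortex, Nrp2 in the interaction (0.047) and Vegfc over both regions (-0.048).

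Leaving out 1 library changed the sign of these results. Between genotypes in thalamus the log2 fold change ran from -0.53 to 0.75 for Adm, -0.063 to 0.37 for Flt1, -0.035 to 0.31 for Nrp2 and -0.21 to 0.26 for Vegfc. In cortex it ran from -0.53 to 0.27 for Nrp1, -0.61 to 0.98 for Nrp2 and -0.087 to 0.098 for Vegfb. Between regions in ret/ret it ran from -0.61 to 0.033 for Adm, -0.42 to 0.22 for Kdr, -0.041 to 0.35 for Nrp1 and -0.74 to 0.25 for Nrp2. In ret/wt it ran from -0.52 to 0.24 for Nrp1, -0.78 to 0.36 for Nrp2, -0.10 to 0.10 for Vegfa and -0.43 to 0.089 for Vegfc. In the interaction it ran from -0.060 to 0.73 for Nrp1, -0.87 to 0.70 for Nrp2 and -0.001 to 0.24 for Vegfb. Between genotypes over both regions it ran from -0.12 to 0.40 for Esm1, -0.16 to 0.23 for Flt1, -0.18 to 0.12 for Nrp1 and -0.33 to 0.36 for Nrp2. Counting error limits Esm1 most, with at most 17 counts in a library.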
